A study of Mus musculus with 12 samples.

Results

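The EGF receptor family and its ligands were followed in mouse oral tumours as 10 genes: the ligands Hbegf, Areg, Ereg, Tgfa, Btc and Epgn, the receptors Egfr, Erbb2 and Erbb3, and the receptor inhibitor Errfi1. Members were taken as every array probe whose platform annotation carries one of these symbols. This gave 11 probes for 7 of the 10 genes, among 16593 genes with a named probe and 25697 probes in all. Areg, Erbb2 and Erbb3 have no probe under those names in the annotation used and were not analysed here, so Egfr stood alone as receptor. RNA from 6 KHR-NICD and 6 KHR tumours, grown for 21 days in first-generation offspring of FVB and C57BL/6 mice, was hybridised to Illumina MouseRef-8 v2 bead arrays, with 1 tumour per array. NICD usually stands for the intracellular domain of Notch, which is cut free from the receptor and activates transcription in the nucleus with the DNA-binding protein RBPJ. The labels do not spell out KHR, a name both groups share. How NICD was introduced is not stated either. The tumours are called biological replicates without mention of separate animals, and the spread behind each p-value is that between these 12 tumours.

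EGF-family ligands are made as membrane-anchored precursors. Proteases of the ADAM family release them, and they bind EGFR, which pairs with another receptor of the family and signals through RAS and the MAP kinases. ERBB2 has no known ligand of its own, ERBB3 has little kinase activity, and the product of Errfi1, MIG6, binds the EGFR kinase domain and inhibits it. In stratified epithelium, keratinocytes both make the ligands and carry the receptor, and the ligands are known for driving keratinocyte growth and wound closure.

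The values given are background-corrected, quantile-normalized log2 intensities, and a difference of 1 on this scale is a doubling. The tested probes were those detected at p under 0.05 on at least 6 of the 12 arrays. Of the 11 member probes 7 passed, covering Hbegf, Btc, Epgn, Egfr and Errfi1, while both Ereg probes, the Tgfa probe and 1 of 4 Egfr probes did not. Across all arrays 43.6% to 48.1% of probes were detected, and array medians of the unnormalized signal ran from 140.3 to 178.2. The passing member probes had medians of 30 to 41.5 beads per array, and the median bead standard error of each lay between 2.58% and 3.20% of the signal, with single arrays from 1.37% to 5.32%. The number of tumours limits the precision, with a median standard error of 0.13 for a log2 difference over all genes. Eif2s3y, a gene of the Y chromosome, was detected in KHR-NICD tumours 1 and 4 and in KHR tumours 4, 5 and 6. Among KHR tumours it was thus missing in 1 to 3 and present in 4 to 6. Arrays of tumours 1 to 3 of both groups detected 45.8% to 48.1% of probes, and those of tumours 4 to 6 detected 43.6% to 45.6%. With tumour type in the fit, 1566 genes differed with Eif2s3y detection at a limma adjusted p under 0.05. Among KHR tumours Eif2s3y and replicate number cannot be told apart as what these genes follow. Differences within the 5 tumours with Eif2s3y and the 7 without it are given for each tested member, and for some of the list genes named below. Of the 10 listed keratinocyte markers 9 were measured, and all but Krt15 had means of 10.16 or above in both groups. The mean of Krt14, a basal keratin, was 14.32 ± 0.06 in KHR-NICD tumours and 14.30 ± 0.05 in KHR tumours (SD, n = 6 each). Krt15 was dimmer and varied more among KHR tumours, at 8.04 ± 0.45 in KHR-NICD and 8.13 ± 1.83 in KHR tumours (SD, n = 6 each).

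The stretches before the start sites of Btc, Epgn, Egfr and Errfi1 are shown here because the name NICD usually refers to a Notch domain that acts through RBPJ, whose core site in letters is GTGGGAA. Hbegf, Ereg and Erbb3 are not shown. The sequences are RefSeq promoters of build GRCm38.p6, the 250 bases before the annotated start, read 5′ to 3′ on the strand of the gene. For Errfi1 the second of 2 listed starts is printed, and the window of the first holds none of the motifs searched. Capitals mark a match on either strand to the RBPJ core, to the AP-1 site TGANTCA, to the cyclic AMP response element TGACGTCA, to the TATA box TATAAA or to the GC box GGGCGG.
Btc, chr5:91402995-91403244, strand -: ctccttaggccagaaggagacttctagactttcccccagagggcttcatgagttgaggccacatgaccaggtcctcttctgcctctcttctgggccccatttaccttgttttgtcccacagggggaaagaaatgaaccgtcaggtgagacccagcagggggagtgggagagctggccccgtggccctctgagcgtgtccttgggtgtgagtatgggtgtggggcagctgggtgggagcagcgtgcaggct
Epgn, chr5:91027267-91027516, strand +: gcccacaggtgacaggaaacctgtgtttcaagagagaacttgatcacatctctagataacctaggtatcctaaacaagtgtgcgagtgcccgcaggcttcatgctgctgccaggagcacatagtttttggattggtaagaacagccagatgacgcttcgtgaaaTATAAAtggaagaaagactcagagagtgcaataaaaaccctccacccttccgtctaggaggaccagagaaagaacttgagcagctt
Egfr, chr11:16751953-16752202, strand +: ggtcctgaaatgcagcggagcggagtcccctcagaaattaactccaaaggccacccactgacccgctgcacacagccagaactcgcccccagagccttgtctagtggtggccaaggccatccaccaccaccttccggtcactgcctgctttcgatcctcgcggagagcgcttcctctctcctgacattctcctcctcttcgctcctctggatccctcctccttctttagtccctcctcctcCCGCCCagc
Errfi1, chr4:150854820-150855069, strand +: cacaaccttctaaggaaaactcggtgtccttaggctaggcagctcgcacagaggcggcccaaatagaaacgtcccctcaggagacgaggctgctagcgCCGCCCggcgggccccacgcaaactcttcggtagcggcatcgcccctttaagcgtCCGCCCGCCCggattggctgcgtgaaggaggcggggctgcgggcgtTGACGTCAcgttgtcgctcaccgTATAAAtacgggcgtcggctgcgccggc
None of these 4 windows holds the letters of the RBPJ core, which are in 5.42% of 32851 RefSeq promoter windows of this length, and none holds the AP-1 letters, which are in 6.75%. The printed Errfi1 window holds the cyclic AMP response element, found in 1.55% of windows, 51 bases before the start, with a TATA box 28 bases before it. It also holds 3 GC boxes, 2 of which overlap each other. The Epgn window holds a TATA box 86 bases before the start, the letters of which are in 12.4% of windows. The Egfr window holds 1 GC box, found in 32.7% of windows, and the Btc window holds none of the 5 motifs. Among members without a tested probe, the Areg window holds the RBPJ core 166 bases and a cyclic AMP response element 61 bases before the start, with a TATA box and a GC box. The Tgfa window holds 2 GC boxes and the Erbb2 window none of the 5 motifs. A match in letters is a description of the window and does not show binding.

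KHR-NICD was set against KHR to ask which of these transcripts differ in tumours labelled with the Notch domain. None of the 5 tested genes passed at an adjusted p under 0.05, a threshold that 17 of 8420 genes passed (0.202%), 8 with a higher level in KHR-NICD (0.095%) and 9 with a lower one (0.107%). Hbegf came closest, with a level in KHR-NICD tumours of 67.4% of that in KHR tumours and the 39th smallest p of all genes. The 3 tested ligands had differences from -0.57 to -0.22 with a median of -0.31, against a median of 0.005 over all genes tested. Egfr and Errfi1 lay nearer to 0, at -0.09 and -0.07. All 5 differences were negative, where 48.9% of all genes had a negative difference. At an unadjusted p under 0.05, 1 of the 5, Hbegf, was lower, where 7.1% of genes were. In RNA from whole tumours, fewer cells of a kind and less RNA per cell cannot be told apart.

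**Figure D1:**
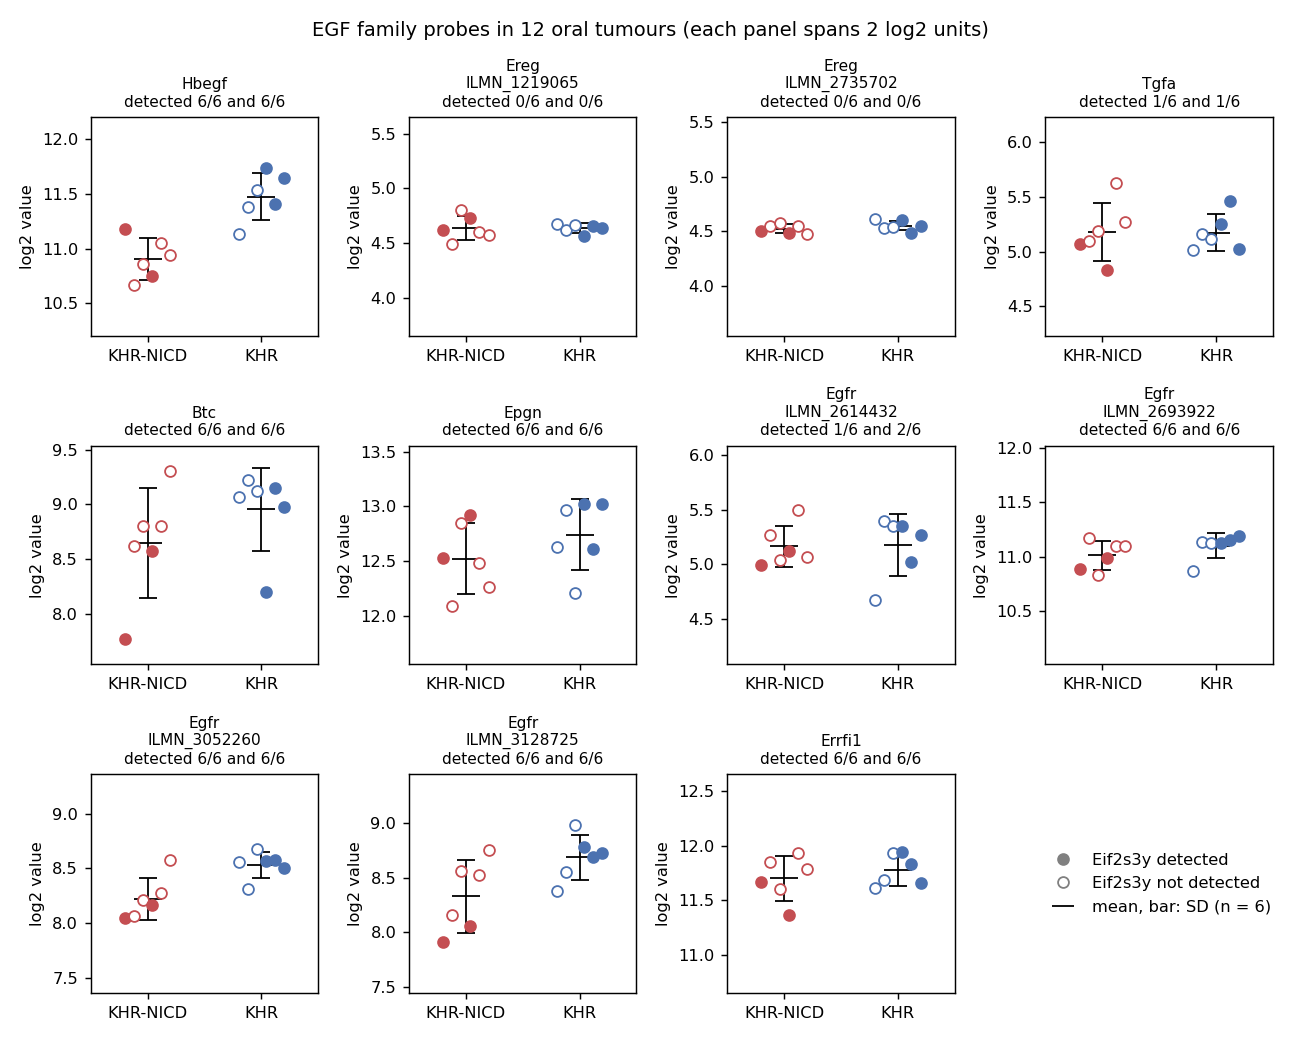
Log2 value of each of the 11 EGF family probes (y axis, each panel spanning 2 log2 units) in KHR-NICD tumours on the left and KHR tumours on the right, with filled points for tumours with Eif2s3y, a cross bar at the mean and an error bar for the SD (n = 6). For Hbegf 5 of 6 KHR-NICD tumours lie below every KHR tumour, while the Ereg, Tgfa and dimmest Egfr panels sit at the level of the array background.

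Hbegf encodes heparin-binding EGF-like growth factor, a ligand of EGFR and ERBB4 that is itself transcribed in response to RAS and MAP kinase signalling. Its log2 values ran from 10.66 to 11.18 with a median of 10.90 in KHR-NICD tumours, and from 11.13 to 11.74 with a median of 11.47 in KHR tumours. The unnormalized signals ran from 1531 to 2357 with a median of 2009 in KHR-NICD tumours. In KHR tumours they ran from 2378 to 3977 with a median of 3239. These signals are not corrected for differences between arrays, and how many probes stand apart on that scale was not counted. On the normalized scale 5 of the 6 KHR-NICD tumours lay below every KHR tumour, as was so for 2.8% of genes. KHR-NICD tumour 1 lay above KHR tumour 1 alone. The 2 groups were fully apart for none of the 5 member genes and for 1.57% of all genes. The mean was 10.91 ± 0.19 in KHR-NICD tumours and 11.47 ± 0.21 in KHR tumours (SD, n = 6 each). The difference of -0.57 had a standard error of 0.12 and a 95% interval from -0.82 to -0.32. It missed the threshold after Benjamini-Hochberg adjustment over 8420 genes (limma adjusted p = 0.0656, unadjusted p = 0.000304), and 1.1% of all genes had a difference as negative or more so. The call depended on the fit. Hbegf passed in 6 of 15 alternative settings, among them detection of Eif2s3y as a covariate (difference -0.54, limma adjusted p = 0.0304), and in 1 of the 12 fits that left out 1 tumour, that without KHR tumour 1 (difference -0.64, limma adjusted p = 0.0422).

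The 2 Hbegf values that crossed between the groups came from tumours of different Eif2s3y status. Within the 5 tumours with Eif2s3y, Hbegf stood at 10.75 and 11.18 in 2 KHR-NICD tumours and between 11.41 and 11.74 in 3 KHR tumours. Within the 7 tumours without it, the range was 10.66 to 11.05 in 4 KHR-NICD tumours and 11.13 to 11.54 in 3 KHR tumours. The groups thus did not overlap within either set, which was so in this direction for 2.47% of genes (22.7% within the 5 tumours and 7.01% within the 7). The mean difference was -0.63 with Eif2s3y (limma adjusted p = 0.0994) and -0.47 without it (limma adjusted p = 0.184), neither past the threshold. The difference between these 2 effects was -0.16 with a standard error of 0.23 (limma interaction, adjusted p = 0.75).

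Btc encodes betacellulin, a ligand of EGFR and ERBB4. Its values ran from 7.77 to 9.30 with a median of 8.71 in KHR-NICD tumours and from 8.20 to 9.22 with a median of 9.09 in KHR tumours. The groups overlapped over nearly their whole range, and the lowest value of each was in a tumour with Eif2s3y, KHR-NICD tumour 1 and KHR tumour 4. The difference was -0.31 with a 95% interval from -0.81 to 0.19 (limma adjusted p = 0.579). Without KHR tumour 4 it was -0.46 (limma adjusted p = 0.37), and without KHR-NICD tumour 1 it was -0.14 (limma adjusted p = 0.808). The mean difference was -0.61 within the 5 tumours with Eif2s3y and -0.26 within the 7 without it (limma interaction, adjusted p = 0.666). Between tumours with and without Eif2s3y, Btc differed by -0.53 ± 0.19 (standard error) once tumour type was fitted (limma adjusted p = 0.073).

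Epgn encodes epigen, a ligand of EGFR. Its values ran from 12.09 to 12.92 with a median of 12.50 in KHR-NICD tumours and from 12.21 to 13.02 with a median of 12.80 in KHR tumours. KHR tumours 2, 4 and 6 lay above every KHR-NICD tumour, and the other values intermingled. The difference was -0.22 with a 95% interval from -0.59 to 0.15 (limma adjusted p = 0.599). This interval includes 0 as well as the value found for Hbegf. Without KHR-NICD tumour 2 the difference was -0.13 (limma adjusted p = 0.802). Within the tumours with Eif2s3y it was -0.16 and within those without it -0.18.

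Tgfa and Ereg, which encode the EGFR ligands transforming growth factor alpha and epiregulin, gave no usable level. The Tgfa probe was detected in KHR-NICD tumour 5 and KHR tumour 5 alone, with detection p-values up to 0.252 in KHR-NICD tumours and 0.135 in KHR tumours. Its log2 values ran from 4.83 to 5.63 in KHR-NICD tumours and from 5.01 to 5.47 in KHR tumours. The 2 Ereg probes were detected on 0 of 12 arrays, with values of 4.81 or below in KHR-NICD tumours and 4.68 or below in KHR tumours, and the lowest detection p was 0.258. These probes were not above background in most or all tumours of either group, so no fold is given. Such a probe does not show that the transcript is absent.

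Egfr was read by 4 probes, which the annotation ties to 2 RefSeq transcripts, 2 probes to each. The brightest, ILMN_2693922, ran from 10.84 to 11.18 with a median of 11.04 in KHR-NICD tumours and from 10.87 to 11.19 with a median of 11.13 in KHR tumours. On this probe 5 of the 6 KHR tumours lay between 11.13 and 11.19 and KHR tumour 1 lay lower, at 10.87. KHR tumour 6 alone lay above every KHR-NICD tumour, and the other KHR tumours lay within the KHR-NICD range. The difference was -0.09 with a standard error of 0.08 and a 95% interval from -0.27 to 0.09 (limma adjusted p = 0.687 over all genes). Without KHR tumour 1 it was -0.13 and without KHR-NICD tumour 3 it was -0.05. Within the tumours with Eif2s3y it was -0.22 and within those without it 0.009 (limma interaction, adjusted p = 0.474). This is the probe that stands for the gene, since the rule takes the one with the highest mean.

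The 2 probes of the other transcript showed larger differences. ILMN_3052260 ran from 8.04 to 8.58 with a median of 8.19 in KHR-NICD tumours and from 8.31 to 8.68 with a median of 8.56 in KHR tumours. On it 5 of 6 KHR-NICD tumours lay below every KHR tumour, as was so for 2.62% of tested probes, and KHR-NICD tumour 6 alone lay among the KHR tumours. Its difference was -0.31 with a 95% interval from -0.53 to -0.09 (limma adjusted p = 0.208 over 11721 probes, unadjusted p = 0.00839). ILMN_3128725 ran from 7.91 to 8.76 with a median of 8.34 in KHR-NICD tumours and from 8.38 to 8.98 with a median of 8.71 in KHR tumours. Its difference was -0.36 with a 95% interval from -0.68 to -0.03 (limma adjusted p = 0.333 over 11721 probes, unadjusted p = 0.0334). Within the tumours with Eif2s3y ILMN_3128725 differed by -0.75 (limma adjusted p = 0.0569), and within those without it by -0.14 (limma adjusted p = 0.758). For ILMN_3052260 the values were -0.44 with Eif2s3y and -0.24 without it. For these 2 probes the difference between the sets was not tested. The lower value in KHR-NICD tumours thus did not pass for any Egfr probe, in a fit that called 8 of 11721 probes (0.0683%). Of the 7 tested member probes 3 had an unadjusted p under 0.05 and a negative difference, the Hbegf probe and these 2, where 6.92% of all tested probes did. All 7 had a negative difference, as did 48.6% of all tested probes. These 2 probes read the same gene and are not independent of each other. The fourth Egfr probe, ILMN_2614432, was detected in 1 of 6 KHR-NICD and 2 of 6 KHR tumours and gives no fold.

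Whether the Egfr probes changed unequally was tested within tumours, a test chosen after the values were seen. The mean of the 2 dimmer probes minus the brightest was lower by 0.25 in KHR-NICD than in KHR tumours. Its range was -3.07 to -2.43 in KHR-NICD tumours and -2.70 to -2.30 in KHR tumours. An exact two-sided permutation test gave p = 0.0671, or 0.134 adjusted over the 4 contrasts computed, and did not pass. The 2 dimmer probes differed between tumour types by 0.05 relative to each other (exact permutation p = 0.688). The positions of the probes within the gene are not given in the files, so what sets them apart on the transcript cannot be stated.

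**Figure D2:**
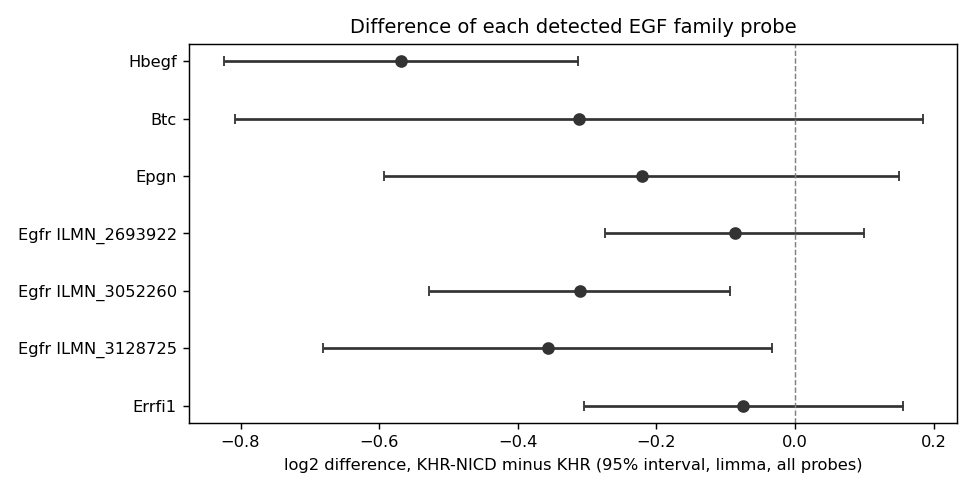
Log2 difference of KHR-NICD minus KHR (x axis) for the 7 EGF family probes that passed the detection filter, with 95% intervals from limma over 11721 probes. All 7 points lie left of 0, and the intervals of Hbegf and of 2 of the 3 Egfr probes leave out 0 before adjustment.

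The transcript of Errfi1 is itself raised by EGFR signalling. Its values ran from 11.36 to 11.94 with a median of 11.73 in KHR-NICD tumours and from 11.61 to 11.94 with a median of 11.76 in KHR tumours. The ranges nearly coincide, apart from KHR-NICD tumour 4, the lowest of all 12. The difference was -0.07 with a standard error of 0.11 and a 95% interval from -0.30 to 0.15 (limma adjusted p = 0.805). Without KHR-NICD tumour 4 it was -0.007 (limma adjusted p = 0.988), and over all fits without 1 tumour it ran from -0.12 to that value. Within the tumours with Eif2s3y the mean difference was -0.29, and within those without it 0.05. The difference between these effects did not pass (limma interaction, adjusted p = 0.374).

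Among the remaining genes of the family, Nrg1, which encodes the ERBB3 and ERBB4 ligand neuregulin 1, was the 1 of 6 listed genes that was measured. It averaged 7.26 ± 0.42 in KHR-NICD tumours and 7.59 ± 0.39 in KHR tumours (SD, n = 6 each), a difference of -0.33 (limma adjusted p = 0.51). It was -0.19 without KHR tumour 4, -0.05 within the tumours with Eif2s3y and -0.35 within those without it. Egf, Nrg3 and Nrg4 were detected on 0 arrays, and Nrg2 and Erbb4 have no probe under those names in the annotation used.

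Genes linked to ligand release, Timp3 among them, were nearly balanced around 0. Of 11 listed 8 were measured, of which 0 rose and 0 fell, with a median difference of -0.006. Adam17, the main sheddase of several EGFR ligands, averaged 10.07 ± 0.14 in KHR-NICD tumours and 10.22 ± 0.09 in KHR tumours (SD, n = 6 each), a difference of -0.15 (limma adjusted p = 0.446). Rhbdf1, encoding iRhom1, which carries ADAM17 to the cell surface, stood at -0.13, Rhbdl2, a rhomboid protease, at 0.37 and Adam9 at 0.24. Adam9 was dim, with means of 6.27 in KHR-NICD and 6.03 in KHR tumours, and stood at 0.08 without background correction. Within the tumours with Eif2s3y Rhbdl2 stood at 0.72 and Adam9 at 0.54, and within those without it Rhbdl2 stood at 0.14 and Adam9 at -0.05. Adam10 was detected on 0 arrays.

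Adaptors that couple the receptors to RAS and phosphoinositide 3-kinase had a median difference of -0.10 over 8 of 13 listed genes, of which 0 rose and 0 fell. Ptpn11, encoding the phosphatase SHP2 that carries the signal to RAS, averaged 11.88 ± 0.06 in KHR-NICD tumours and 12.08 ± 0.09 in KHR tumours (SD, n = 6 each). Its difference of -0.21 did not pass (limma adjusted p = 0.19). Nck1, an SH2 and SH3 adaptor, stood at -0.23, and Pik3r1 and Pik3ca, the regulatory and a catalytic subunit of phosphoinositide 3-kinase, stood at 0.36 and -0.34. These differences did not pass (limma adjusted p from 0.248 to 0.386). Pik3ca was dim, with means of 5.59 in KHR-NICD and 5.93 in KHR tumours. Without background correction Pik3ca stood at -0.10 and Pik3r1 at 0.31.

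Genes of receptor turnover and inhibition had a median difference of -0.15 over 12 of 15 listed genes, of which 0 rose and 0 fell. At an unadjusted p under 0.05 there were 4 of these 12, beside 13.9% of all genes, and all 4 had negative differences. Cblc, a ubiquitin ligase of activated EGFR, averaged 7.83 ± 0.17 in KHR-NICD tumours and 8.13 ± 0.11 in KHR tumours (SD, n = 6 each), a difference of -0.30 (limma adjusted p = 0.168). The others were Ptprk, a receptor-type phosphatase that acts on EGFR, at -0.25, Hgs, which sorts ubiquitin-tagged receptors to lysosomes, at -0.17, and Socs3, an inhibitor of cytokine receptor signalling, at -0.46. Within the tumours with Eif2s3y Cblc stood at -0.06 and Socs3 at -0.12, and within those without it Cblc stood at -0.44 and Socs3 at -0.66.

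Genes transcribed downstream of RAS and the MAP kinases had a median difference of -0.53 over 11 of 16 listed genes, of which 0 rose and 2 fell, where 0.107% of all genes fell. Those 2 were Dusp4, a phosphatase of MAP kinases, at -1.14 and Phlda1, a growth-factor-induced pleckstrin homology protein, at -1.04 (limma adjusted p = 0.0208 for each). Both calls were lost with the replicate block (limma adjusted p = 0.0667), in each Eif2s3y set, and without KHR tumour 3 (0.0595) or KHR-NICD tumour 2 (0.0585). The Dusp4 call was also lost without KHR tumour 6 (limma adjusted p = 0.0548) and the Phlda1 call without KHR tumour 2 (limma adjusted p = 0.0542). Within the tumours with Eif2s3y Dusp4 stood at -1.23 and Phlda1 at -1.29. Within those without it Dusp4 stood at -0.98 and Phlda1 at -0.92. Beside the Hbegf difference of -0.57, Egr1 and Fosl1, which encode immediate early transcription factors, stood at -0.53 and -0.66 (limma adjusted p = 0.303 and 0.299). Epha2, a receptor kinase, stood at -0.67 (limma adjusted p = 0.0501) and passed in 9 of 15 alternative settings. Dusp6, another MAP kinase phosphatase, stood at -0.68 (limma adjusted p = 0.184) and passed in 2 of 15. These were the fits with Eif2s3y detection (difference -0.80, limma adjusted p = 0.00339) or a score of skeletal muscle markers (difference -0.62, limma adjusted p = 0.041) as covariate. Spred1, an inhibitor of RAS signalling, stood at -0.19, and Ier3, Etv5, Fos and Etv4 at -0.06, -0.06, -0.03 and 0.13, beside -0.07 for Errfi1. The list was assembled with earlier results of these tumours known and is no independent evidence of its direction.

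**Figure D3:**
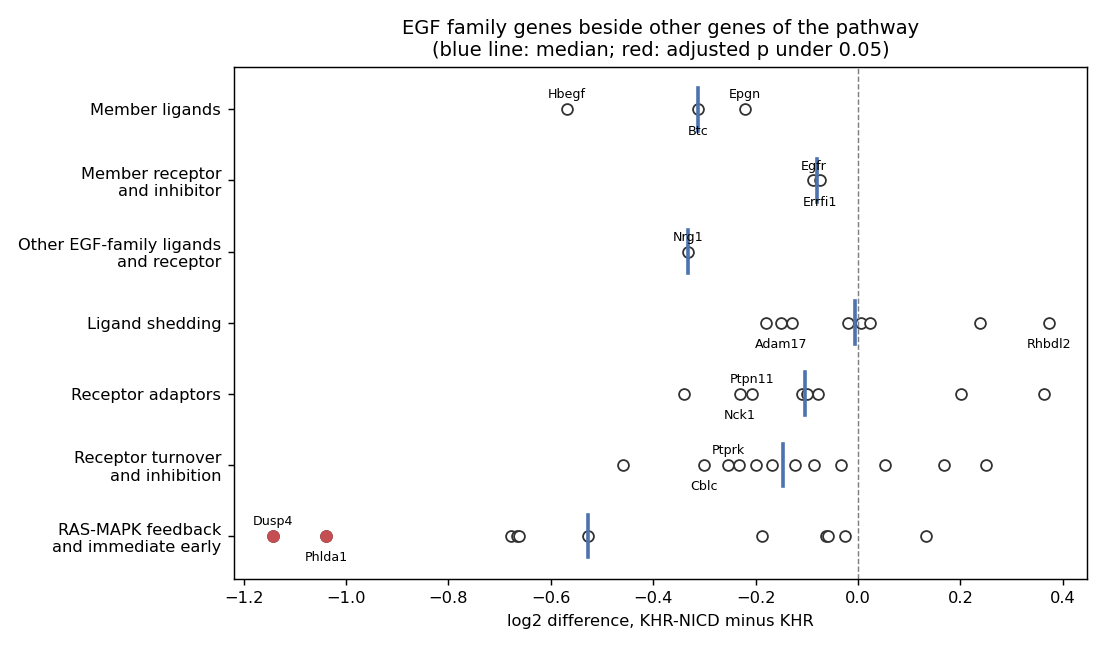
Log2 difference of KHR-NICD minus KHR (x axis) for each measured gene of the EGF family and of 5 lists of other pathway genes (rows), with a blue line at the median of each row and red points for genes with an adjusted p under 0.05. The downstream RAS-MAPK list has the lowest median, -0.53, and holds the only 2 called genes. That list was assembled with earlier results of these tumours known, so its place among the rows is no independent evidence. Genes linked to ligand release centre on 0.

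Markers of other cells are given because the tumours were measured whole. Keratinocyte markers had a median difference of -0.01 over 9 of 10 listed, and the log2 of their summed level ran from 16.41 to 16.59 in KHR-NICD tumours and from 16.39 to 16.49 in KHR tumours. The brightest keratins, Krt14, Krt16, Krt10 and Krt5, weigh most in that sum. Fibroblast markers had a median of 0.14 over 9 of 10, with sums from 12.40 to 12.93 in KHR-NICD tumours and from 12.26 to 12.91 in KHR tumours, and 4 of the 9 had an unadjusted p under 0.05, where 13.9% of all genes did. Of these 4, Lum stood at 0.80, Col3a1 at 0.55, Col1a2 at 0.44 and Fbln1 at -0.20, while Postn was detected on 0 arrays. Col3a1 and Col1a2 lay close to background, with KHR means of 5.32 and 5.54 and detection in 4 and 5 of 6 KHR tumours. The brighter Dcn, Col1a1 and Thy1 stood at 0.17, 0.14 and -0.14. For macrophages and dendritic cells the median was -0.01 over 6 of 10 markers, with sums from 10.96 to 11.62 in KHR-NICD tumours and from 11.10 to 11.76 in KHR tumours, and Itgam was detected on 0 arrays. Neutrophil markers had a median of -0.21 over 7 of 10, with sums from 14.73 to 15.04 in KHR-NICD tumours and from 14.79 to 15.08 in KHR tumours. S100a8, with means of 14.19 in KHR-NICD and 14.20 in KHR tumours, and S100a9 weigh most in these sums. All 7 differences were negative, the lowest being Ltf at -1.47 (limma adjusted p = 0.55). Mmp8, Ngp and Camp were detected on 0 arrays. Endothelial markers had a median of -0.17 over 8 of 10, with sums from 11.43 to 12.04 in KHR-NICD tumours and from 11.52 to 12.18 in KHR tumours. Of these 8, 6 had negative differences, while Vwf, with the smallest p of the list, stood at 0.58 (limma adjusted p = 0.209). Skeletal muscle markers had a median of -0.18 over 8 of 10, and their sums spread widely, from 10.94 to 13.15 in KHR-NICD tumours and from 10.54 to 13.76 in KHR tumours. Hair keratins had a median of -0.70 over 6 of 10, with sums from 9.95 to 12.22 in KHR-NICD tumours and from 9.87 to 13.65 in KHR tumours. None of the members of these 7 lists passed the threshold. With the muscle score as a covariate the Hbegf difference was -0.58 (limma adjusted p = 0.0246), and the part of the other lists in it was not tested. Of 7 salivary gland genes Aqp5 alone was measured, at 0.85 (limma adjusted p = 0.0737). None of 6 T and NK cell and 5 adipocyte markers was measured. Trbc1 and Cfd have no probe under those names in the annotation used, and the others did not pass the detection filter.

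The genes most like each member were ranked by the Pearson correlation of their log2 values over the 12 tumours, after the mean of each tumour type was subtracted, among 8419 other genes. These correlations are descriptions, and the tumours also differ in Eif2s3y. Each is picked as one of the highest of 8419 values over 12 tumours, and what chance alone would give was not computed. For Hbegf they were Epn1, Srsf1 and Rnf220, with r of 0.88, 0.87 and 0.87, and 0.85, 0.94 and 0.82 in the 7 tumours without Eif2s3y. None of these 3 differed between the tumour types as Hbegf did, with differences of 0.02, 0.003 and -0.07. For Btc they were Epb41l1, Meis2 and Nipal2 (r from 0.90 to 0.92), and the first of them was 0.48 in the 7 tumours. For Epgn they were Nid1, Arap3 and Rbpms (r from 0.91 to 0.95), for Egfr Ubac2, N4bp2 and Dpp6 (r from 0.86 to 0.90), and for Errfi1 Csta1, Etfdh and Kcnrg (r from 0.87 to 0.92). No member was among the first 3 for another member.

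**Figure D4:**
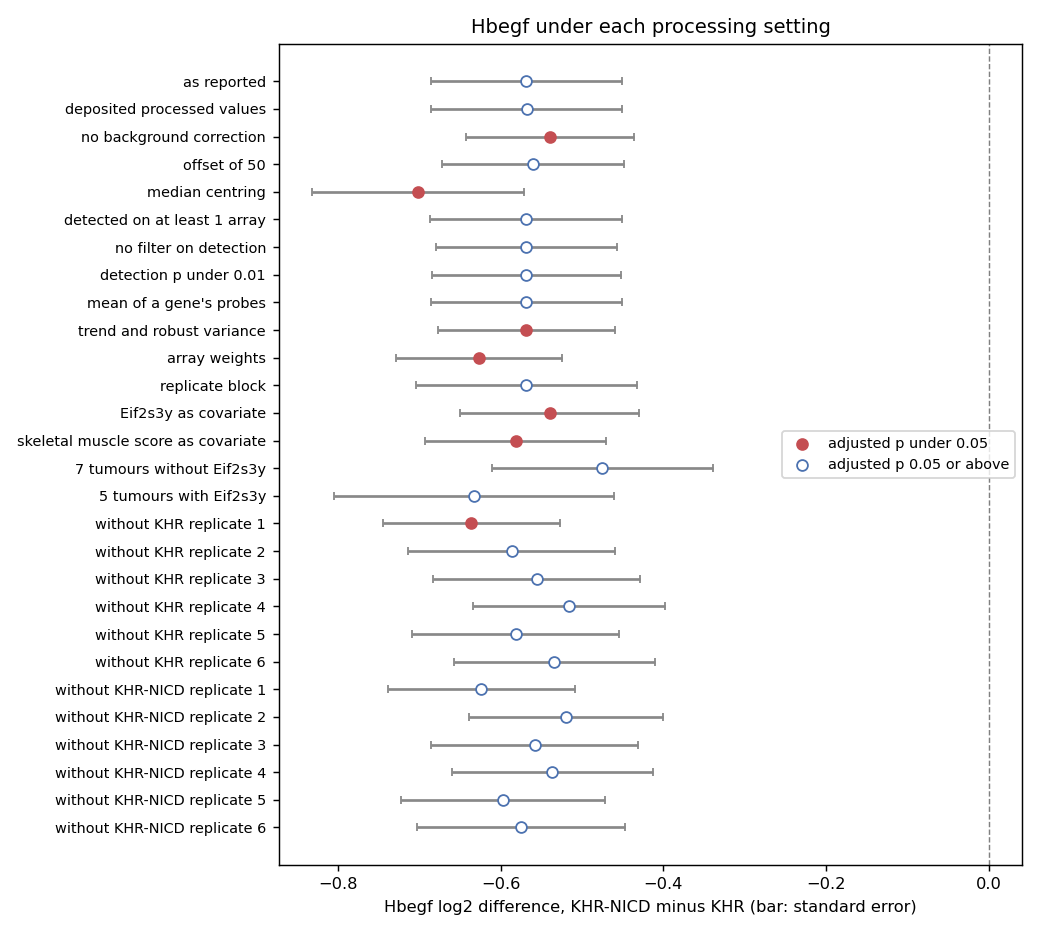
Hbegf log2 difference of KHR-NICD minus KHR (x axis) with its standard error under each processing setting and with each tumour left out (rows), with red points where the adjusted p was under 0.05. The value stays between -0.70 and -0.47 in all of them, and 7 of the 27 alternatives pass the threshold.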

How the data were processed

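Transcripts of 12 tumours were measured on single-colour bead arrays. GenomeStudio and Partek appear in the submitters' processing notes, without versions or roles. The deposited table gives per array a mean bead intensity for each probe, not normalized between arrays, and, per the file headers, a detection p-value, the number of beads and their standard error. A second deposited table holds processed intensity values, with medians from 16.4 to 16.7 and 30.6% of values below 0. Within each array its ranks match those of the signals (Spearman correlation 1), the method behind it is not known, and it served as an alternative, floored at 0 with 16 added before log2.

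Signals went through the neqc function (limma 3.58.1, R 4.3.3, background from detection p-values, offset 16, quantile normalization). Probes detected at p under 0.05 on at least 6 arrays were kept (11721 of 25697), and each gene took its kept probe with the highest mean (8420 genes). Of all probes 23978 had 1 gene in the platform annotation, 0 had several and 1719 were unnamed here, and symbols were updated through Entrez identifiers for 23962. KHR-NICD was compared with KHR by lmFit and eBayes of limma without a block, with Benjamini-Hochberg adjustment at 0.05 over all genes or all probes. The fits were tested on simulated data. All members and their probes are named, with up to 4 genes per pathway list by smallest p and the 3 genes most like each member; other genes named from the lists, and markers, were chosen after their values were seen. Members and lists were chosen with earlier results of these data known. No 2 arrays held identical values. Alternatives covered starting values, background, normalization, filters, probe choice, variance, weights, covariates, subsets and thresholds.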

Additional observations from a re-analysis of the deposited data

Results flagged for a closer look

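In 3 groups of 6 tumours the lowest tumour stood apart from the others by more than Dixon's 95% critical value for its gap divided by the range. KHR tumour 4 had a Btc log2 value of 8.20, with the next KHR tumour at 8.98 and a gap of 0.77 of the range. KHR tumour 1 had an Egfr log2 value of 10.87 on the brightest probe, with the next KHR tumour at 11.13 and a gap of 0.80 of the range. The third was Ptprk, at 9.83 in KHR tumour 1, with the next KHR tumour at 10.06 and a gap of 0.63 of the range. The screen covered 48 groups, and chance flags about 1 in 20.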

How the results depend on the processing

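All 15 alternatives and all 12 fits without 1 tumour gave negative differences for Hbegf, Btc and Epgn, from -0.70 to -0.47 for Hbegf. The number of member genes called was 1, Hbegf, in place of 0 without background correction (adjusted p = 0.0493), with median centring (0.0303), trend and robust variance (0.0374), array weights (0.0179), Eif2s3y (0.0304) or the muscle score (0.0246) as covariate, and at a threshold of 0.1. Over its 15 alternatives the adjusted p of Hbegf ran from 0.0179 to 0.185. Its probe was called in the fit over probes, 1 against 0, under the same settings except without background correction. Leaving out each tumour gave 0 to 1 member genes and 0 member probes. The replicate numbers were not taken to pair the tumours, since same-numbered tumours correlated from -0.22 to 0.45 in their deviations. With the replicate block Hbegf had an adjusted p = 0.185 and 1 gene was called in all.

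Over all genes 17 were called. The count was 28 without background correction, 54 with median centring (5 higher, 49 lower, against 8 and 9 in the reported fit), 31 with trend and robust variance, 125 with array weights, 216 and 107 with Eif2s3y and the muscle score as covariates, and 95 at a threshold of 0.1. In the 7 tumours without Eif2s3y limma called 1, and in the 5 with it 0, with 2144 at an unadjusted p under 0.05. Without 1 tumour it ran from 1 to 24. The ligand median was -0.61 in the 5 tumours with Eif2s3y and ran from -0.46 to -0.22 without 1 tumour. The Egfr value was -0.21 with median centring, -0.25 as the mean of its probes, -0.22 in those 5 tumours, and from -0.13 to -0.052 without 1 tumour. In the 7 tumours without Eif2s3y 3 genes changed sign, Egfr (on its brightest probe) at 0.0091, Errfi1 at 0.050 and Adam9 at -0.050. The causes were not tested, and the subsets also hold fewer tumours. Probes near background, as those of Ereg and Tgfa, cannot show a difference.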
